A study of Mus musculus with 3 samples.

Results

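The interferon receptor genes of mouse chromosome 16 and a set of interferon-induced genes were followed in LSK cells, the blood stem and progenitor fraction that carries no lineage markers and carries Sca1 and c-Kit. The set was taken by gene name and holds 10 of the 37899 gene identifiers with a usable estimate. The receptors are Ifnar1, Ifnar2, Ifngr2 and Il10rb, and the induced genes are Parp9, Parp14, Dtx3l, Rtp4, Batf2 and Socs1. The cells were sorted at E14.5 from the fetal liver of C57Bl/6 embryos that were wild-type (WT), hemizygous or homozygous for the DNMT3B7 transgene, which encodes a shortened DNMT3B protein, a DNA methyltransferase. The sources used here do not give the promoter of the transgene or the number of founder lines. Each genotype stands on 1 RNA sequencing library from the pooled cells of 4 to 5 embryos. No test between genotypes was therefore possible, no p-value is given, and every difference below is one between libraries.

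Interferons act through receptors of paired chains on the cell surface. IFNAR1 and IFNAR2 form the receptor for type I interferons, IFNGR2 is the signalling chain beside the ligand-binding IFNGR1 for interferon gamma, and IL10RB is the chain shared by the receptors for interferon lambda, IL-10 and IL-22. Bound receptors activate Janus kinases and STAT proteins, which bind the interferon-stimulated response element or the gamma activated site near induced genes. In adult bone marrow, interferons are known to bring dormant blood stem cells into cycle.

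A value here is the deposited FPKM divided by 4245, the same factor in every library, so that values of different genes are per transcript length and may be compared. FPKM relates the fragments of a gene to its length and to library depth. Genes that all cells use had high values only in stretches that begin at 1 end of certain chromosomes, with few exceptions, and were listed at or near 0 elsewhere. Comparisons are therefore restricted to 1452 genes, those in 10 such segments and on the mitochondrial genome. Chromosome 16 up to Morc3 holds 825 of them and chromosome 19 up to Rasgrp2 holds 158. All 10 members lay inside these segments, Batf2 on chromosome 19 and the others on chromosome 16, and all 10 passed the minimum value of 1 with the status OK in every library. The estimated depth was 2990000, 2980000 and 2280000 fragments on all listed genes for WT, hemizygous and homozygous. Mitochondrial mRNAs took 63.8%, 60.1% and 51.1% of the fragments on the genes compared, in the same order, or 41.2%, 36.6% and 29.2% with the longest transcript lengths, and were lowest in the homozygous library. Counting intervals (95%) come from the estimated fragments of a gene and cover neither the spread between embryos nor that of library making. Whether an interval excludes 0 depends on those fragments, and the shares given for all genes were not matched to the members in this. The members were also chosen with earlier results of these data known.

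In the annotation used for gene order, the receptors stand in the order Ifnar2, Il10rb, Ifnar1, Ifngr2 on one strand, with only the read-through gene model Gm21970 among them. Parp14, Dtx3l and Parp9 are neighbours too, with Dtx3l and Parp9 on opposite strands and overlapping at their 5′ ends. Promoter windows of 300 bases were found for 5 of the 10 members in the RefSeq table (GRCm38.p6), namely Ifnar1, Ifnar2, Ifngr2, Dtx3l and Socs1. These were searched on both strands for GAAANNGAA, the core of the interferon-stimulated response element, and for TTCNNNGAA, the gamma activated site. The first was present in 8.56% and the second in 8.30% of all 32851 windows of that length. Socs1 held 2 overlapping copies of the first motif, GAAAGAGAA and GAAACCGAA, which begin at -83 and -77 from the start site. Ifnar1 and Ifnar2 held 1 copy each of the second, TTCACGGAA at -5 and TTCCTGGAA at -214. No match to either was found in the windows of Ifngr2 and Dtx3l, which says only that these letters are not there. Il10rb, Parp9, Parp14, Rtp4 and Batf2 had no window and were not searched, so which of them carry a motif is not known. The 3 windows with a match are shown as stretches of 150 bases, 5′ to 3′, with the matches in capitals.
Socs1, chr16:10785537-10785686, minus strand: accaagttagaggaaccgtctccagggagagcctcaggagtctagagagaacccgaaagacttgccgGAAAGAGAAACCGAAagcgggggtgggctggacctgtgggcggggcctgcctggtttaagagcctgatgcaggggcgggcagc
Ifnar2, chr16:91372533-91372682, plus strand: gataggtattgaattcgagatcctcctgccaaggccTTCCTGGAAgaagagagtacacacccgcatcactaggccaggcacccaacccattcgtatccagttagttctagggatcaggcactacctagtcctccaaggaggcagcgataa
Ifnar1, chr16:91485075-91485224, plus strand: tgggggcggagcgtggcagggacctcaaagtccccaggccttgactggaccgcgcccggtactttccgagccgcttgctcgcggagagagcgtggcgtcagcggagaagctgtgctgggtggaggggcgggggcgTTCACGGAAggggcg

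Every receptor gene had a higher level than every induced gene in the WT and hemizygous libraries, while in the homozygous library Ifngr2 stood below Dtx3l and Parp9. The median value of the 4 receptors was 117 (WT), 125 (hemizygous) and 105 (homozygous), against 57.2, 44.2 and 60.8 for the 6 induced genes. The median over the 756 nuclear protein-coding genes that reached a value of 1 was 69.2, 70.5 and 66.0. By mean value the order was Ifnar2, Ifnar1, Il10rb, Ifngr2, Dtx3l, Parp9, Rtp4, Parp14, Socs1 and Batf2. Neighbours in that order overlapped in their ranges over the 3 libraries down to Parp14, so their order is not separated by more than that spread. Each member other than Dtx3l and Parp14 nevertheless lay below the one before it in all 3 libraries. The ranges of Socs1 and Batf2 lay wholly below that of the gene before each. Ifnar2 ranked 224 and Batf2 663 among the 756 genes.

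**Figure D1:**
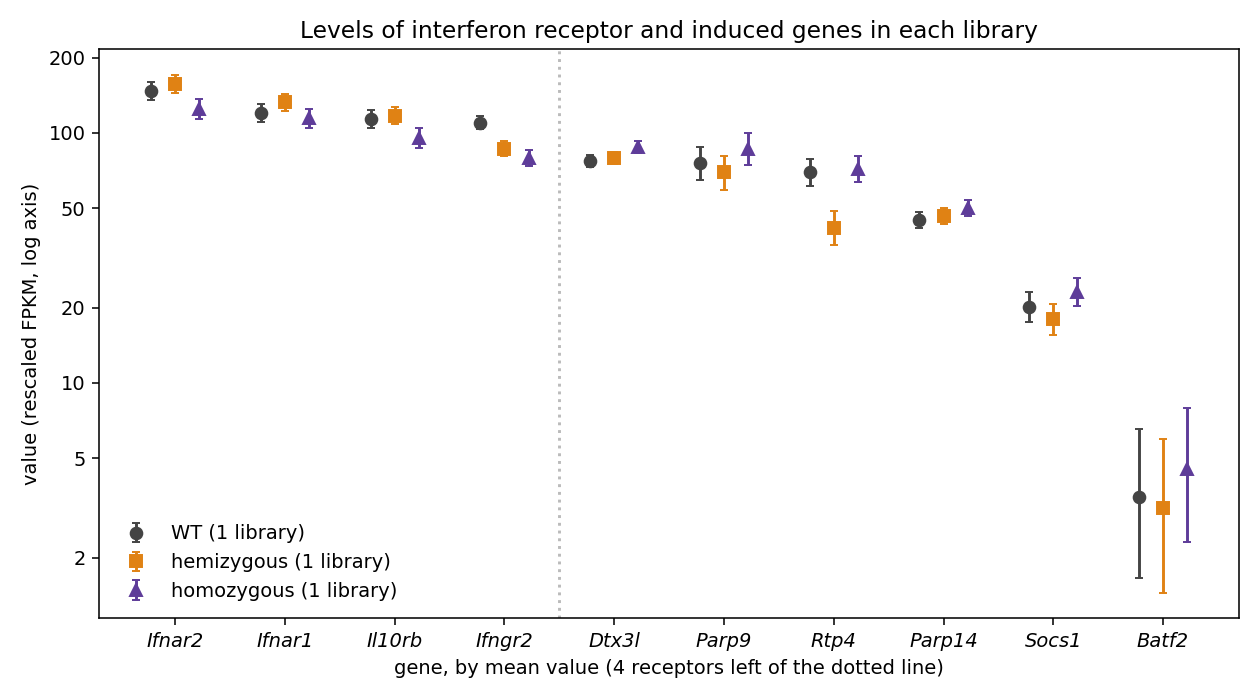
Value (deposited FPKM divided by 4245, log axis) of the 10 genes in the WT (circles), hemizygous (squares) and homozygous (triangles) library, ordered by mean value, with exact Poisson 95% counting intervals. With values as deposited, each of the 4 receptors was lowest in the homozygous library (not under sum scaling, which gives each library the same sum over all genes but small RNAs), each of the 6 induced genes was highest there, and Rtp4 stood lower in the hemizygous library than in the other two.

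Ifnar2 (ENSMUSG00000022971) encodes the chain that binds type I interferon most tightly and was the most abundant member. Its values were 147 (WT), 157 (hemizygous) and 125 (homozygous). Ifnar1 (ENSMUSG00000022967), the partner chain, was at 120.0, 132 and 115 in the same order. Both chains were highest in the hemizygous and lowest in the homozygous library. The ratio of Ifnar1 to Ifnar2, which does not depend on how libraries are scaled, was 0.817 for WT (counting interval 0.726 to 0.919), 0.845 for hemizygous (0.756 to 0.943) and 0.919 for homozygous (0.809 to 1.04), and these intervals overlap.

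Il10rb (ENSMUSG00000022969), the shared chain, was at 114 (WT), 117 (hemizygous) and 95.2 (homozygous). It followed the order of the IFNAR chains. Stretches of 50 bases shared with other transcripts made up 13.9% of its transcripts and 7.89% of those of Ifnar2. Reads of such stretches may be added to or lost from their values. Both genes share exons with Gm21970 on the same strand, 14.9% of the exon bases of Il10rb and 9.46% of those of Ifnar2. The shared stretches and this overlap thus cover the same bases at least in part. Gm21970 was listed at or near 0 in every library. Ifngr2 (ENSMUSG00000022965), the interferon gamma chain, had another order, with 110.0 (WT), 86.4 (hemizygous) and 79.1 (homozygous). Both transgenic libraries thus lay below WT for Ifngr2. Relative to Ifnar1 in the same library, Ifngr2 was at 0.917 for WT (0.828 to 1.02), 0.653 for hemizygous (0.590 to 0.722) and 0.691 for homozygous (0.617 to 0.773). The WT interval did not overlap either of the others.

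Dtx3l (ENSMUSG00000049502), a ubiquitin ligase, and Parp9 (ENSMUSG00000022906), its partner of the ADP-ribosyltransferase family, form a complex in the interferon response. Dtx3l was at 77.3 (WT), 79.2 (hemizygous) and 88.1 (homozygous). Parp9 had values of 75.5, 69.5 and 86.3. The ratio of Dtx3l to Parp9 was 1.02, 1.14 and 1.02, with counting intervals that overlap. Their exons share 458 bases on opposite strands, 9.40% of those of Parp9, and the strand setting of the counting is not stated, so reads from that stretch cannot be assigned to one of them. Parp14 (ENSMUSG00000034422), a mono-ADP-ribosyltransferase encoded beside them, was at 44.9, 46.6 and 49.9. All 3 genes of the locus were highest in the homozygous library, by small amounts.

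Rtp4 (ENSMUSG00000033355), a receptor transporter protein induced by type I interferon, had the widest range among members with a mean value of at least 5. It was at 69.5 (WT), 41.8 (hemizygous) and 71.8 (homozygous). The hemizygous value, with a counting interval of 35.8 to 48.6, lay apart from the other two (61.4 to 78.3 and 63.4 to 81.0). Of the 787 genes with a mean value of at least 5, 2 were lower in the hemizygous library than in each of the others by more than 1.5-fold, Rtp4 and Car3, and 8 were higher by that rule. This count was made after the values of Rtp4 were seen. The genes nearest to Rtp4 in their pair of log2 ratios to WT, over 3 libraries and 786 candidates, were Car3, a muscle carbonic anhydrase, at a distance of 0.13, the antisense transcript Gm17036 at 0.17 and Fcor, a corepressor of the transcription factor FOXO1, at 0.28. Of the transcript sequence of Rtp4, 11.6% was shared with other transcripts in stretches of 50 bases. A gene model on the same strand, absent from the deposited identifiers, overlaps 296 exon bases of Rtp4, or 13.9%. The shared stretches therefore need not come from similar genes elsewhere. Rtp1, Rtp2 and Sst beside Rtp4 were listed at 0 in all 3 libraries, and Masp1 did not reach a value of 1.

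Socs1 (ENSMUSG00000038037), the inhibitor of Janus kinases that ends interferon signalling, was at 20.2 (WT), 17.9 (hemizygous) and 23.2 (homozygous). The order of its libraries was that of Parp9 and Rtp4. Batf2 (ENSMUSG00000039699), a transcription factor of the AP-1 family induced by interferon gamma, was the lowest member, with 3.51, 3.15 and 4.52. These values rested on an estimated 9.65, 9.13 and 11.8 fragments, and the counting interval in the WT library ran from 1.66 to 6.52. No difference in Batf2 was detectable at this depth. A further limit is that 51 bases of its exons overlap those of Arl2 on the opposite strand, and Arl2 was at 166, 182 and 163.

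Homozygous cells carry the transgene on both alleles and WT cells on neither. All 4 receptors were lower and all 6 induced genes higher in the homozygous library, each by less than 1.5-fold, with values as deposited. Sum scaling placed 3 receptors above WT and Parp9, Dtx3l, Socs1 and Batf2 past 1.5-fold, at 0.60, 0.60, 0.59 and 0.63. Scaling to the sum of the nuclear genes compared, an alternative chosen after seeing the data, placed Ifnar1 at 0.0062. The median log2 ratio of value + 1 was -0.24 for the receptors, with a range of -0.47 to -0.066, and 0.19 for the induced genes, with a range of 0.046 to 0.29. Over all 955 genes measured in this comparison (status OK in both libraries and a value of at least 1 in 1 of them) the median was -0.045, and 56.2% lay below 0. None of the 10 members was past 2-fold, against 4.40% of all genes, and none was past 1.5-fold, against 12.5%. Under sum scaling 4 members and 21.5% of all genes were past 1.5-fold. Of all genes, 20 were higher and 22 lower by 2-fold, which became 42 and 11 when libraries were scaled to the same sum.

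The largest of these differences was that of Ifngr2, with a log2 ratio of -0.47 (95% counting interval -0.61 to -0.33), or 0.720 of the WT value. Il10rb followed with -0.25 (-0.43 to -0.078) and Ifnar2 with -0.24 (-0.42 to -0.053), while Ifnar1 lay at -0.066 (-0.24 to 0.10). Thus 3 of 10 members had intervals below 0, where 19.0% of all genes did. Dtx3l at 0.19 (0.075 to 0.30) and Parp14 at 0.15 (0.0014 to 0.30) had intervals above 0, 2 of 10 members against 14.1% of all genes. Parp9 had the same log2 ratio as Dtx3l, 0.19, with a wider interval (-0.11 to 0.49). Socs1 was at 0.19 (-0.065 to 0.44), Rtp4 at 0.046 (-0.20 to 0.29) and Batf2 at 0.29 (-0.68 to 1.27). Scaling to the same sum added 0.42 to the log2 ratio of every gene before the pseudocount, and the ratios of Ifnar2, Il10rb and Ifnar1 then lay above 0, at 0.18, 0.16 and 0.35, and that of Ifngr2 at -0.056. The median of all 955 genes then lay at 0.35 and that of the receptors at 0.17. No member then had an interval below 0, against 3.04% of all genes. Parp9, Ifnar1, Rtp4, Parp14, Socs1 and Dtx3l had intervals above 0, 6 of 10 members against 59.1% of all genes. Under nuclear sum scaling the interval of Ifnar2 included 0 and that of Socs1 did not, while 12.0% of all genes lay below 0 and 20.6% above by that rule. With the longest transcript that of Parp9 lay above 0, as did 20.5% of all genes. The direction of Ifnar2, Il10rb and Ifnar1 against WT therefore changes with the scaling. Ifngr2 stayed below WT under each scaling, under sum scaling with an interval that included 0.

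**Figure D2:**
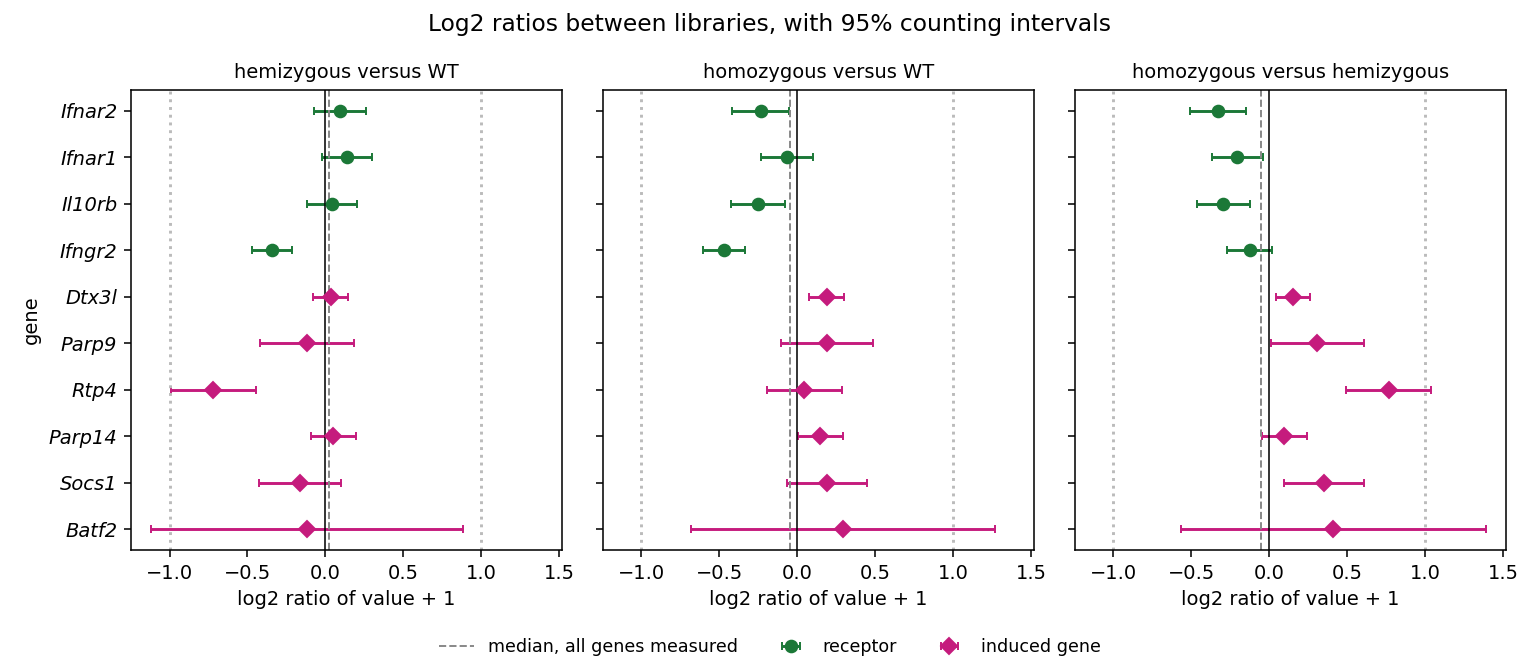
Log2 ratio of value + 1 for each member in the 3 comparisons, with 95% counting intervals, receptors as circles and induced genes as diamonds. Dashed lines give the median of all genes measured and dotted lines 2-fold. With values as deposited, the receptors lie left of 0 in both comparisons of the homozygous library and the induced genes right of it, which sum scaling turns for Ifnar2, Il10rb and Ifnar1 against WT and for Ifnar1 and Ifngr2 against hemizygous. In hemizygous versus WT the intervals of Ifngr2 and Rtp4 lie left of 0.

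Hemizygous cells, with 1 allele that carries the transgene, were set against WT in the same way. With values as deposited, only Rtp4 and Ifngr2 of the 10 members had counting intervals that excluded 0. Rtp4 had a log2 ratio of -0.72 (-0.99 to -0.45), or 0.602 of the WT value, and Ifngr2 had -0.34 (-0.47 to -0.21), or 0.786 of it. These are 2 of 10 members with an interval below 0, against 14.6% of the 954 genes measured, and 0 of 10 had an interval above 0, against 17.3%. Rtp4 was also past 1.5-fold, as were 7.97% of all genes, and no member was past 2-fold, against 2.73%. Under sum scaling Rtp4 was at -0.57, short of 1.5-fold. Of all genes, 17 were higher and 9 lower by 2-fold, and 21 and 6 under sum scaling.

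The other 8 members had intervals that included 0 in this comparison. Ifnar1 came nearest, at 0.14 (-0.018 to 0.30), and its interval lay above 0 when fragments were estimated from the longest transcript (0.051 to 0.23) and under nuclear sum scaling. Of all genes, 25.9% and 22.6% had intervals above 0 with these 2 settings. The median log2 ratio was 0.068 for the receptors and -0.12 for the induced genes, beside 0.022 for all genes. Dtx3l at 0.035 and Parp14 at 0.051 were close to WT as deposited, whereas Parp9 at -0.12, Socs1 at -0.16 and Batf2 at -0.12 were slightly lower within their counting error, and sum scaling moved Parp9 to 0.036 and Batf2 to 0.0010. It moved Dtx3l to 0.19 and Parp14 to 0.20, and the intervals of these, of Ifnar1, of Ifnar2 and of Il10rb then lay above 0, 5 of 10 members against 37.4% of all genes.

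Homozygous against hemizygous cells addresses the number of alleles that carry the transgene, and this comparison shares its libraries with those above. As deposited, the 4 receptors were lower and the 6 induced genes higher in the homozygous library, while sum scaling placed Ifnar1 and Ifngr2 above 0. The medians were -0.25 and 0.33, beside -0.055 for the 962 genes measured, of which 60.9% lay below 0 and 39.1% above. Rtp4 had the largest log2 ratio, 0.77 (0.49 to 1.04), or 1.72-fold in value. With values as deposited it was the only member past 1.5-fold, where 11.4% of all genes were, and none was past 2-fold, against 4.57%. Under sum scaling the ratio of Rtp4 passed 2-fold and those of Socs1 (0.60) and Batf2 (0.63) passed 1.5-fold. These are 3 of 10 members past 1.5-fold, against 12.2% of all genes, and the interval of Batf2 still included 0. The genes past 2-fold, 16 higher and 28 lower as deposited, became 26 and 16, or 4.37%.

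Intervals lay above 0 for Rtp4, Socs1 (0.35, 0.093 to 0.61), Parp9 (0.31, 0.010 to 0.61) and Dtx3l (0.15, 0.042 to 0.26), 4 of 10 members against 8.84% of all genes. They lay below 0 for Ifnar2 (-0.33, -0.51 to -0.15), Il10rb (-0.30, -0.47 to -0.12) and Ifnar1 (-0.21, -0.37 to -0.043), 3 of 10 against 20.4%. Ifngr2 was at -0.13 (-0.27 to 0.017), Parp14 at 0.097 (-0.046 to 0.24) and Batf2 at 0.41 (-0.57 to 1.39). Under sum scaling Ifnar2 (-0.067) and Il10rb (-0.035) lay nearer to 0, and Ifnar1 and Ifngr2 turned to 0.054 and 0.13. No interval of a member then lay below 0, against 5.61% of all genes, and those of 5 of 10 members lay above 0, against 42.4%. Median-ratio scaling, which shifts ratios by 0.067, ended the call of Ifnar1 and added Parp14 above 0. The members called were then 2 of 10 below 0, against 13.9% of all genes, and 5 of 10 above 0, against 14.1%. The longest transcript added Ifngr2 below 0, which gave 4 of 10 below 0 against 29.9% and 4 of 10 above 0 against 13.0%.

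Because scaling moves all genes of a library together, the induced genes were also set against the receptors of the same library. The summed value of the 6 induced genes was 0.593 of that of the 4 receptors for WT (counting interval 0.555 to 0.634), 0.524 for hemizygous (0.490 to 0.560) and 0.783 for homozygous (0.731 to 0.839). The homozygous interval lay above both others, and the WT and hemizygous intervals overlapped slightly. As deposited, the induced sum was 291 (WT), 258 (hemizygous) and 324 (homozygous), and the receptor sum was 490, 493 and 414. With these values the higher homozygous ratio holds both a higher induced sum and a lower receptor sum. Under sum scaling the median log2 ratio to WT was above 0 for both sets, 0.60 for the induced genes and 0.17 for the receptors. For Parp9, Dtx3l and Parp14 alone the ratios were 0.403 (0.374 to 0.435), 0.396 (0.369 to 0.426) and 0.543 (0.503 to 0.585), so the WT and hemizygous intervals overlapped and the homozygous one lay above both. For Rtp4 alone they were 0.142, 0.0849 and 0.174, with the hemizygous library lowest. As deposited, the values of Rtp4 itself were close in WT (69.5) and homozygous (71.8), and those 2 ratios then differ mostly through the receptor sum. Sum scaling placed Rtp4 at a log2 ratio of 0.46, so this split depends on the scaling. Each ratio rests on 1 library, so its spread between embryos of 1 genotype is not known. This comparison was made with the values of the members in view.

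**Figure D3:**
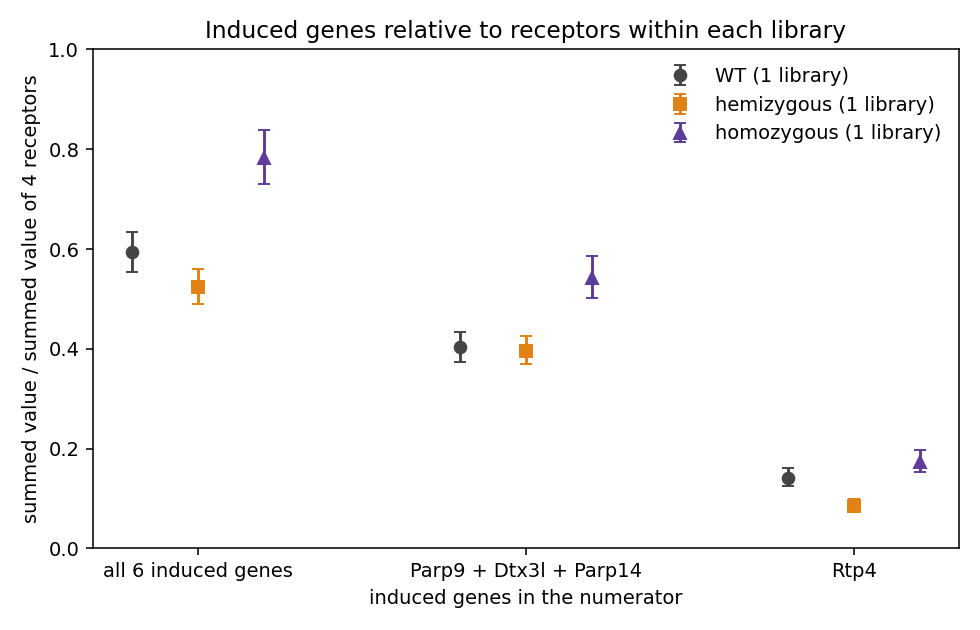
Summed value of the induced genes divided by the summed value of the 4 receptor genes in the same library, for all 6 induced genes, for Parp9, Dtx3l and Parp14, and for Rtp4, with 95% counting intervals. All 6 together stood at 0.783 in the homozygous library against 0.593 in the WT, and Rtp4 alone at 0.0849 in the hemizygous library against 0.142 in the WT. The receptor sum was also lower in the homozygous library (414) than in the WT (490), with values as deposited.

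The genes beside the members differed in which library was highest. Tmem50b, the first gene after the receptor cluster, was at 51.5 (WT), 48.8 (hemizygous) and 39.7 (homozygous), and Dnajc28 after it at 12.6, 19.9 and 14.1. On the other side Olig2 and Olig1, transcription factors of the nervous system, did not reach a value of 1. Around the Parp locus, Kpna1, an importin, was at 183, 203 and 210, Wdr5b at 33.6, 34.7 and 34.7, Hspbap1 at 11.5, 10.4 and 11.6 and Dirc2 at 34.1, 39.5 and 35.7. Beside Socs1, Dexi was at 57.8, 41.2 and 32.1, lowest in the homozygous library where Socs1 was highest, and Clec16a at 21.0, 22.8 and 24.2. Tnp2, on the other side of Socs1, was at 0, 0.677 and 2.25, highest in the homozygous library but close to the minimum value. Snx15 and Arl2 next to Batf2 were abundant, Snx15 with 190, 223 and 206.

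Little else of the interferon pathway could be read. Of 89 interferon-induced genes of a wider list found in the tables, 5 lay in the segments, all of them members, and 43 of the other 84 were listed at 0 in all 3 libraries. None of 21 interferon and related ligand genes and none of 7 partner chains, Ifngr1 and Il10ra among them, lay in the segments. Of 18 signalling genes, 3 did. Among them Crebbp, a histone acetyltransferase that serves as coactivator of STAT proteins, was at 43.2, 62.5 and 47.8, and Ciita, the activator of MHC class II genes, was at 1.66, 1.94 and 2.10. Of 13 negative regulators, Bcl6, a transcriptional repressor, was at 6.61, 7.23 and 5.97 beside Socs1. Rela, the NF-kB subunit, was the only one of 20 genes of nucleic acid sensing, at 214, 211 and 201. Of these list genes none was past 2-fold in any of the 3 comparisons.

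Markers of other cells were as thinly covered. None of 12 macrophage and monocyte genes, of 12 plasmacytoid dendritic, NK and T cell genes or of 7 gate and stem cell surface genes lay in the segments, so the labelled cell type was not checked on its own markers. The 2 of 9 vessel wall markers that did, Col4a1 and Col4a2, summed to 52.6 (WT), 68.1 (hemizygous) and 99.3 (homozygous). Their sum was highest where the induced genes were highest. In the hemizygous library it lay above WT, while the induced sum lay below WT there, at 258 against 291. The log2 ratios to WT behind the former were small for their counting standard errors, 0.30 (0.27) for Col4a1 and 0.41 (0.21) for Col4a2. Tfrc, 1 of 8 erythroid markers found, was at 1280, 1414 and 1013, and the hepatocyte gene Ahsg at 3.70, 3.49 and 3.67. The part of other cells, and that of the mitochondrial share, in the differences of the members was not tested. In bulk RNA, fewer cells of a type and less RNA per cell cannot be told apart.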

How the data were processed

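RNA was measured in 3 pooled libraries, grouped by genotype label. The deposited tables give FPKM per gene with a status, per the file headers. The submitters' processing notes name TopHat2, Bowtie2, Cufflinks and build mm9, in no order. The annotation, the versions and the strand setting were not stated there. The highest row with status OK was kept per identifier. Gene order, types and lengths came from GENCODE M21 (GRCm38), which held 95.6% of identifiers. Positions are printed for RefSeq promoters only, since the builds differ.

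Deposited FPKM times transcript length less 200 bases gave whole multiples of 1 unit, within 0.05, for 72.1%, 69.8% and 72.9% of low values for WT, hemizygous and homozygous. That unit was taken as 1 fragment, which implies denominators of 950.2, 1001 and 901 fragments. Fragments use the median transcript length, and with the longest the totals were 5650000, 5890000 and 4770000. Segments end at a maximum-likelihood break per chromosome in the share of genes at a mean FPKM of at least 200000. A break needed a gain of at least 5 in log likelihood and at least 25% of high genes before it, the latter settled while looking at the values. Ribosomal and other constitutive genes had no part in the fit, and 21 of 23 were high before the breaks against 14 of 379 elsewhere.

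Log2 ratios use value + 1. Scripts (Python 3.11.15, pandas 2.3.3, scipy 1.17.1) were tested on simulated data. The text names all members, the measured genes of the lists (1 is not reported here), 2 protein-coding genes on each side of a locus where they had values, and the 3 genes most like the member of widest range. The members and lists were chosen with earlier results of these data known. Other pseudocounts, minimum values, scalings and transcript lengths were tried.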

Additional observations from a re-analysis of the deposited data

How the results depend on the processing

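Each genotype had 1 library, so none could be left out and no difference has a replicate check. The number of members past 2-fold was 0 in all 3 comparisons with a pseudocount of 0.1 or 5, with a minimum value of 5 or none, with median-ratio scaling, with scaling to the sum of the nuclear genes compared (chosen after seeing the data) and with summed rows. With 1.5-fold as the limit it was 1 in hemizygous versus WT and 1 in homozygous versus hemizygous. Scaling to the same sum of all genes gave 1 in homozygous versus hemizygous. Under it, 7 members had counting intervals that excluded 0 in hemizygous versus WT, 2 lower and 5 higher, against 2 as deposited, while 3.98% of all genes were lower and 37.4% higher by that rule and the median of all genes lay at 0.17. In homozygous versus WT the median log2 ratio became 0.17 for the receptors and 0.60 for the induced genes, and in homozygous versus hemizygous that of the receptors became 0.0096. The ratios of Ifnar2 (0.18) and Il10rb (0.16) for homozygous versus WT and of Ifnar1 (0.054) for homozygous versus hemizygous changed sign, all with intervals that excluded 0 as deposited. Of the ratios with intervals that included 0, Ifnar1 (0.35) for homozygous versus WT, Ifngr2 (0.13) for homozygous versus hemizygous, and Parp9 (0.036) and Batf2 (0.0010) for hemizygous versus WT changed sign too. That sum includes the mitochondrial mRNAs, whose median log2 ratio for homozygous versus WT was -0.79. Under the other scalings, pseudocounts, row sums and lengths all 30 member ratios stayed within their counting intervals. Among all genes, 26 were past 2-fold in hemizygous versus WT, 43 with a pseudocount of 0.1, 4 with 5 and 8 with a minimum value of 5. For homozygous versus WT, 42 became 60 with a pseudocount of 0.1, 10 with 5 and 22 with a minimum value of 5. For homozygous versus hemizygous, 44 became 74 with a pseudocount of 0.1, 9 with 5 and 19 with a minimum value of 5. Depth limits Batf2 most, with the fewest fragments of the members.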
